A study of Homo sapiens with 6 samples.

Results

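The genes described here encode the golgins and the other tethers and coats of the early secretory pathway: 12 golgins, the 2 GRASP stacking proteins, the 8 subunits of the COG complex, 8 genes of the COPI coat, 11 of the COPII coat, 4 of the ARF module that loads COPI, and 5 KDEL and p24 cargo receptors. They are 50 of the 60604 genes read from the deposited tables, all 50 were found by symbol, and all 50 were among the 17200 genes with enough counts to be tested. The group was selected on measured values of the same libraries, because golgins were higher after indomethacin, so the differences below describe the members and are no test of the group. All libraries came from AGS, an established human gastric adenocarcinoma line grown in DMEM with fetal bovine serum. Indomethacin, a non-steroidal anti-inflammatory drug that blocks cyclooxygenases, was given at 0.5 mM for 24 h to the 3 libraries called indomethacin. The 3 control libraries are labelled with 0 mM, and the labels give them neither a vehicle nor a time in the treatment period. Only 1 cell line was used. The labels do not state that replicate libraries are separate cultures, and the p-values therefore reflect no more than the spread among these 6 libraries, part of which may be technical.

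Proteins leave the endoplasmic reticulum in vesicles coated by COPII, are carried back from the Golgi in vesicles coated by COPI, and are caught on arrival by long coiled-coil golgins and by multisubunit tethers such as COG. The small GTPases SAR1 and ARF1 start the assembly of COPII and COPI, and KDEL receptors return escaped chaperones of the endoplasmic reticulum to it. In gastric epithelium this route carries mucins and other secreted glycoproteins, and cells are known to raise genes of the Golgi when its capacity is exceeded, in part through promoter elements such as the Golgi apparatus stress response element.

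Total counts were 17535435 to 23221077 per library, so that 3 counts, the level below which a gene counts as not detected, stood for 0.129 to 0.171 CPM (counts scaled to the size of the library). All 6 epithelial markers were measured, at summed levels of 3290 to 3790 CPM in control and 3020 to 3340 CPM in indomethacin libraries. Of these, EPCAM (log2 fold change -0.68) and KRT8 (-0.55) fell, CLDN4 (1.70) and CLDN7 (1.05) rose, and KRT18 and KRT19 did not pass. Of 16 markers of other cell types, 2 had enough counts to be tested, and the summed level of the 16 was 8.32 to 11.1 CPM in control and 14.7 to 15.7 CPM in indomethacin libraries. COL1A1, a collagen gene, rose from 4.92 ± 1.31 to 10 ± 0.948 CPM and ACTA2 did not pass, while CDH5, COL1A2, DCN and ALB had 0 counts in all control libraries. The part of these markers in the results was not tested. Differences were tested across all 17200 genes with edgeR's quasi-likelihood test and Benjamini-Hochberg adjustment, and a gene is said to have risen or fallen where its adjusted p was under 0.05. At that threshold 61.6% of all genes tested changed, 30.6% upward and 31.0% downward, and the 2 groups of libraries did not overlap in 67.0% of them. In bulk RNA, fewer cells of a kind and less RNA per cell cannot be told apart.

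Promoter sequence was not among the measured values that chose the genes. The motifs searched were chosen with results of these data known, and GASE was first defined in promoters of Golgi genes, so their shares are a description. RefSeq windows of GRCh38.p14, 250 bases before to 50 bases after an annotated start, were found for 42 of the 50 genes, 56 windows in all, and were searched on both strands for 7 motifs. ARF4, ARFGAP1, COG7, GOLGA4, GOLGA7, KDELR2, SEC24D and USO1 had no window in the table. The motif ACGTGGC, the core of the Golgi apparatus stress response element (GASE), was in 23 of the 56 windows (41.1%) and in 18 of the 42 genes. It was in 7.17% of the windows of 180 other genes of the secretory pathway listed by function, in 3.6% of the windows of protein-coding genes and in 3.22% of all 35116 windows. The motif TGACGTGG, the unfolded protein response element (UPRE), was in 12 of the 56 windows (21.4%) and in 11 genes, against 2.26% of pathway windows, 0.761% of protein-coding windows and 0.729% of all windows. These motifs share 6 letters, so that 1 stretch of 9 bases can hold both, and they are not independent counts. Either motif was in 46.4% of the windows and in 21 of the 42 genes, against 3.65% of all windows. Windows of 1 gene can overlap, as those of COPB2 and SEC13 do.

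The matches were uneven over the roles. Of the genes with a window, 7 of 10 COPII genes, 5 of 8 COPI genes, both ARF genes, 2 of 4 cargo receptor genes, 1 of 2 GRASPs, 3 of 9 golgins and 1 of 7 COG genes held GASE or UPRE. The CRE motif TGACGTCA was in 1 window (1.79%), that of the golgin GCC1, against 1.85% of all windows. The motifs TCACGTGA (CLEAR), TGATGNAA (CARE), CCAAT followed after 9 bases by CCACG (ERSE) and ATTGG followed after 1 base by CCACG (ERSE-II) were in 0 of the 56 windows. They were in 0.98%, 3.62%, 0.0769% and 0.0541% of all windows. A match describes the letters of a window and is neither a measured binding site nor a cause, and no match says only that these letters are not in this window.

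**Figure D1:**
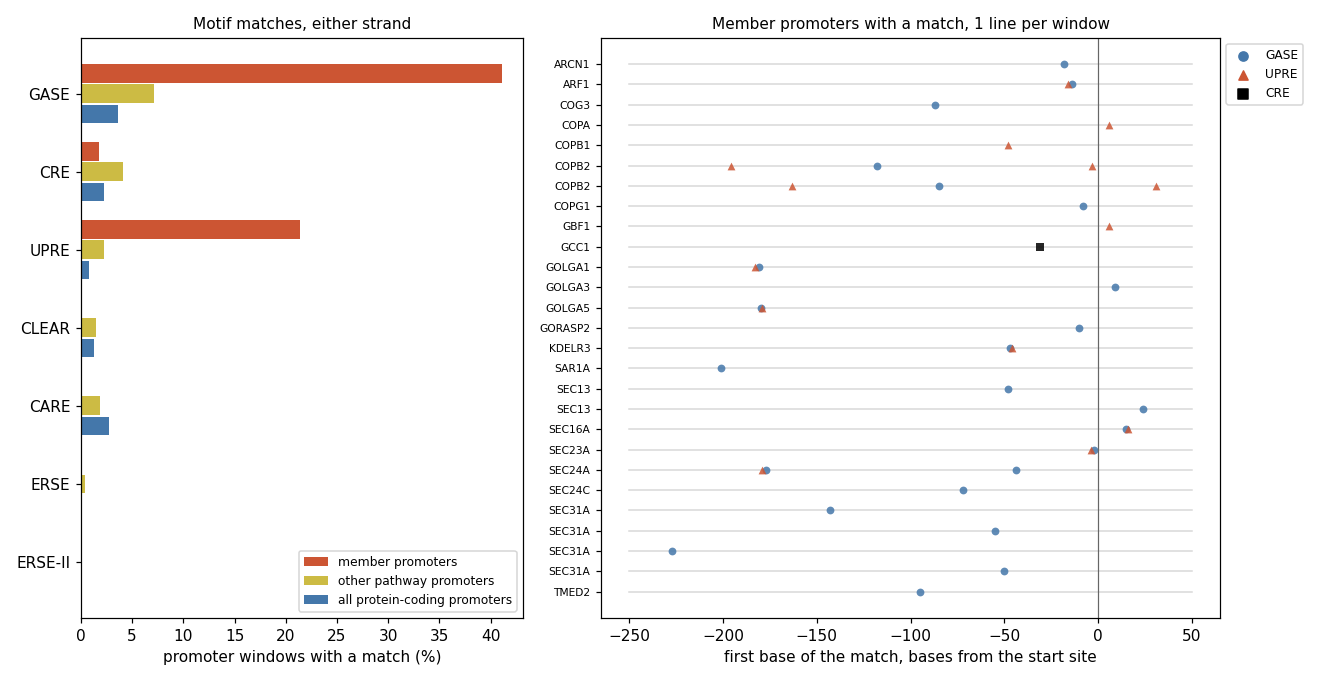
Left, the percentage of promoter windows with each motif among the genes described (red), the other pathway genes (yellow) and all protein-coding genes (blue); right, the position of each GASE (circle), UPRE (triangle) and CRE (square) match relative to the start site at 0, in bases, with 1 line per window. GASE is in 41.1% and UPRE in 21.4% of the windows of the genes described, and the matches lie at distances from -227 to 31.

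The windows of 5 genes show the same letters in front of genes that rose, did not pass the test, or fell. SEC23A, chr14:39103186-39103485 (minus strand), ARF1, chr1:228082458-228082757 (plus strand), and GOLGA5, chr14:92794055-92794354 (plus strand), rose. COPB2, chr3:139389598-139389897 (minus strand), did not pass, and KDELR3, chr22:38467846-38468145 (plus strand), fell. Each is printed 5′ to 3′ on the strand of its gene, with the bases that match GASE or UPRE in capitals.
SEC23A: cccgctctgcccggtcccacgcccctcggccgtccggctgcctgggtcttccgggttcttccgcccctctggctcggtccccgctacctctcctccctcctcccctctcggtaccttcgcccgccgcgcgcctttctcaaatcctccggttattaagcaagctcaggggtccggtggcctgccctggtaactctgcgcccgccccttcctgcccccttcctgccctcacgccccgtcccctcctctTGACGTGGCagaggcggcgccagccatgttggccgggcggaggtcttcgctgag
ARF1: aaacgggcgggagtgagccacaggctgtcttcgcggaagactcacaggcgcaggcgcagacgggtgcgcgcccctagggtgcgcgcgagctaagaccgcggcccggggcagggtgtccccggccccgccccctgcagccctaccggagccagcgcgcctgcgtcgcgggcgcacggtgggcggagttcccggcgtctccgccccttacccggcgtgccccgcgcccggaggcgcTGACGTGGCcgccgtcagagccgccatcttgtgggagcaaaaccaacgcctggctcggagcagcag
GOLGA5: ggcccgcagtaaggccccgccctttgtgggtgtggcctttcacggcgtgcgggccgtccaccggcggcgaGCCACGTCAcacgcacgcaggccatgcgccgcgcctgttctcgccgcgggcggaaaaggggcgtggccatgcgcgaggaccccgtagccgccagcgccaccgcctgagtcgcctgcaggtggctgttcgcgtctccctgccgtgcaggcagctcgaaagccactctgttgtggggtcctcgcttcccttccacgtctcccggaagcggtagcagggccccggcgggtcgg
COPB2: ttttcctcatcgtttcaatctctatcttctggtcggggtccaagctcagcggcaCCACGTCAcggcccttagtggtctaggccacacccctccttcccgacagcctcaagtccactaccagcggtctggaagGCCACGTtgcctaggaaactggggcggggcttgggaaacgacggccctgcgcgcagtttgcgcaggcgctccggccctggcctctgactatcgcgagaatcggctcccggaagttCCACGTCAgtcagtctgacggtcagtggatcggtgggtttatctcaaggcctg
KDELR3: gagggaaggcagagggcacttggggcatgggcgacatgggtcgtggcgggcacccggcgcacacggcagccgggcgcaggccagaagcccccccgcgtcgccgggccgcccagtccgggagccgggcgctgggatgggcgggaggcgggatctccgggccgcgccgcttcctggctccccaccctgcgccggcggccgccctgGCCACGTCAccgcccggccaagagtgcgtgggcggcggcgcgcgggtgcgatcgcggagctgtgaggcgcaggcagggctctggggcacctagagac
In SEC23A and ARF1 the run in capitals reads along the gene's strand and begins at positions -4 and -16. In GOLGA5 and KDELR3 it lies on the opposite strand and begins at -180 and -47. The COPB2 window holds 3 separate runs, at -196, -118 and -3. The 21 genes with GASE or UPRE had a median log2 fold change of 0.27, with 10 higher, 2 lower and 9 not passed. The 21 genes with a window and neither motif had a median of 0.28, with 10 higher, 8 lower and 3 not passed, and the 8 genes with no window had a median of 0.41, with 5 higher and 3 not passed. The medians with and without a motif were within 0.01 of each other, while 2 genes with and 8 without a motif were called lower. Of all genes tested, 30.6% were called higher and 31.0% lower. No test of this split was run, and nothing is read from these counts.

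After indomethacin 25 of the 50 genes were called higher, 10 lower and 15 did not pass, with a median log2 fold change (indomethacin minus control) of 0.30, beside 0.04 over all genes tested. The 3 control and 3 indomethacin libraries did not overlap in 39 of the 50. The members were chosen by this contrast, so these counts are set beside the 30.6%, 31.0% and 67.0% of all genes tested and nothing is read from them. Of the 38 members other than golgins, 14 were called higher and 10 lower, with a median of 0.17. Indomethacin replicate 3 was the highest of the 3 indomethacin libraries in 36 of the 50 genes (72.0%), against 37.8% of all genes tested, and its part in the differences was not tested. Without it, 26 of the 50 genes were called higher and 13 lower.

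**Figure D2:**
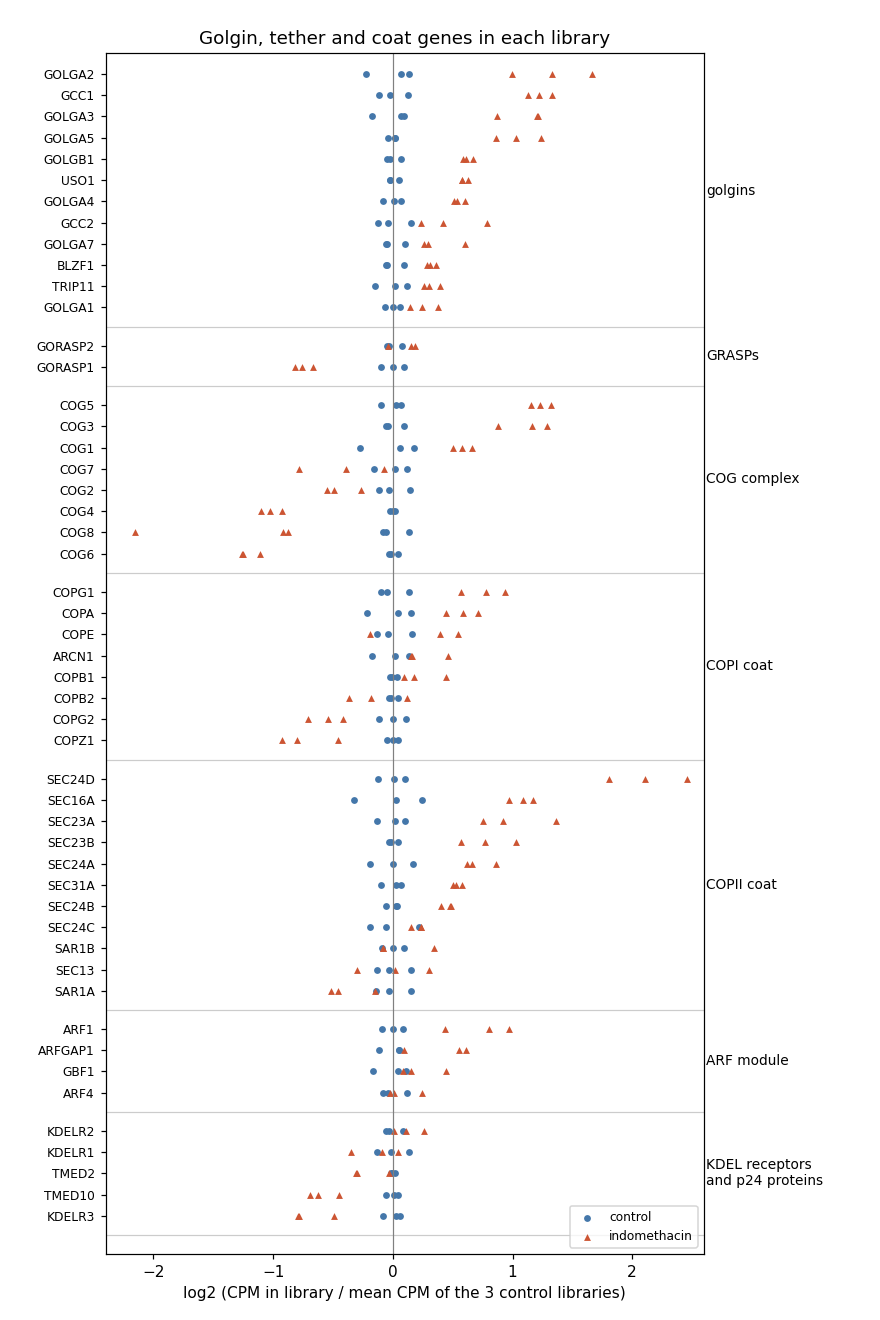
Level of each of the 50 genes in each library as log2 of its CPM over the mean of the 3 control libraries, by role, with control libraries as blue circles and indomethacin libraries as red triangles. All golgins have their triangles to the right of their circles, the COG complex has subunits on both sides, and SEC24D lies farthest to the right.

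Most golgins are coiled-coil proteins that reach out from Golgi membranes to catch vesicles. Of the 12 genes listed as golgins, GOLGA7 among them, 11 rose. Their median log2 fold change was 0.57, with a range from 0.26 (GOLGA1) to 1.36 (GOLGA2) over the 12. All 12 had every indomethacin library above every control library. Of all genes tested, 30.6% were called higher, and the groups did not overlap in 67.0%. Golgins were the values that chose the group, so nothing is read from these counts. The golgin with the largest difference was GOLGA2 (ENSG00000167110, chr9:128255829-128275995, minus strand), or GM130, the cis-Golgi golgin that binds the stacking protein GRASP65 and the tether p115. GOLGA2 stood at 34.1, 43.7 and 41.7 CPM in control libraries 1 to 3 and at 79.6, 100 and 126 CPM in indomethacin libraries 1 to 3. That was a log2 fold change of 1.36 ± 0.16 (SE), or 2.56-fold, and the 3 indomethacin libraries were themselves spread from 79.6 to 126 CPM. USO1, which encodes p115, was measured at 155, 155 and 163 CPM in control libraries 1 to 3 and at 235, 235 and 243 CPM in indomethacin libraries 1 to 3, a log2 fold change of 0.59 ± 0.10. Its libraries were close to each other within both groups and far apart between them.

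GOLGA3, or golgin-160, stood at 60.5, 72.8 and 71.6 CPM without the drug and 125, 157 and 158 CPM with it (1.10 ± 0.12 on the log2 scale). GOLGA5, or golgin-84, which acts in traffic within the Golgi, stood at 72.7, 76.1 and 76.1 CPM without the drug and 136, 153 and 177 CPM with it (1.05 ± 0.11). For both genes the lowest indomethacin library lay over 1.5 times above the highest control library. GOLGB1, giantin, which is anchored in the membrane by its tail, had 174, 186 and 171 CPM without the drug and 271, 282 and 265 CPM with it (0.62 ± 0.10). Its 3 indomethacin libraries lay within 265 to 282 CPM. TRIP11, or GMAP-210, which captures carriers on the cis side, had 112, 135 and 126 CPM without the drug and 163, 153 and 149 CPM with it (0.31 ± 0.11), and the lowest indomethacin and highest control libraries were 149 and 135 CPM.

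The golgins of the trans-Golgi that carry a GRIP domain had log2 fold changes from 0.26 to 1.23. GCC1, or GCC88 (ENSG00000179562, chr7:127580628-127593611, minus strand), was at 32.1, 38.1 and 34.3 CPM in control libraries 1 to 3 and at 76, 81 and 87.7 CPM in indomethacin libraries 1 to 3, a log2 fold change of 1.23 ± 0.11 and 2.34-fold. Exons of GCC1 overlap those of ARF5 on the opposite strand, and ARF5 fell. GCC2, or GCC185, was at 83.5, 101 and 88.8 CPM in control libraries 1 to 3 and at 157, 122 and 107 CPM in indomethacin libraries 1 to 3 (0.50 ± 0.14), and here indomethacin replicate 1 was the highest and replicate 3 the lowest of the 3. GOLGA4, or golgin-245, was at 162, 180 and 173 CPM in control libraries 1 to 3 and at 245, 260 and 249 CPM in indomethacin libraries 1 to 3 (0.55 ± 0.10), with no overlap. GOLGA1, or golgin-97, was at 20.6, 22.4 and 21.5 CPM in control libraries 1 to 3 and at 25.5, 28 and 23.7 CPM in indomethacin libraries 1 to 3, and at 0.26 ± 0.12 it was the golgin that did not pass the test although its groups did not overlap. BLZF1, or golgin-45, had a log2 fold change of 0.32 ± 0.10. GOLGA7, listed with the golgins and a partner of a palmitoyltransferase of the Golgi, had 0.39 ± 0.14. For BLZF1, 38.7, 34.9 and 35.1 CPM without the drug and 46.4, 44.1 and 45 CPM with it were measured, all indomethacin libraries above the controls. For GOLGA7, 11.3, 12.5 and 11.2 CPM without the drug and 14, 17.7 and 14.3 CPM with it were measured, and 56.1% of its exon length is shared with GPAT4-AS1 on the opposite strand.

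Calls of the golgins with small differences depended on the libraries. The count of 11 golgins called higher became 9, 9 and 8 without control replicates 1, 2 and 3, and 10, 10 and 12 without indomethacin replicates 1, 2 and 3. It was 8 where no filter on low counts was used, and 12 with upper-quartile factors. GOLGA7, TRIP11 and BLZF1 were the golgins not passing with no filter beside GOLGA1. The other 8 golgins called higher were called higher under all 13 other settings, and GOLGA1 passed in 4 of them, 1 of which left out indomethacin replicate 3.

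Of the GRASPs, which hold golgins and link Golgi cisternae, 1 fell and 1 did not pass. GORASP1, or GRASP65, the partner of GM130, fell: it stood at 41.7, 36.6 and 39.2 CPM in control libraries 1 to 3 and at 24.7, 22.2 and 23.2 CPM in indomethacin libraries 1 to 3, a log2 fold change of -0.75 ± 0.11 (SE). All 3 indomethacin libraries were below all control libraries. GORASP2, or GRASP55, the partner of golgin-45, was at 55.7, 55.2 and 60 CPM in control libraries 1 to 3 and at 55.4, 63.2 and 64.6 CPM in indomethacin libraries 1 to 3, where the groups overlapped and the log2 fold change was 0.10 ± 0.10. Per kilobase of exon, GORASP1 made up 35.7% ± 1.74 of the pair's counts in control and 23.7% ± 2.4 in indomethacin libraries (SD, n = 3).

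The COG complex tethers vesicles that recycle Golgi enzymes, and its 8 subunits form lobe A (COG1 to COG4) and lobe B (COG5 to COG8). Of the 8, 3 rose, 4 fell and 1 did not pass, beside 30.6% of all genes tested called higher and 31.0% lower. Both lobes held subunits that moved in opposite directions, and nothing is read from these counts. In lobe A, COG3 stood at 39.9, 43.6 and 39.4 CPM in control libraries 1 to 3 and at 75.2, 91.7 and 99.8 CPM in indomethacin libraries 1 to 3, a log2 fold change of 1.12 ± 0.12. COG4 stood at 72.1, 70.9 and 72.8 CPM in control libraries 1 to 3 and at 33.6, 35.4 and 37.9 CPM in indomethacin libraries 1 to 3, a log2 fold change of -1.01 ± 0.10. These neighbours in the complex therefore crossed: COG4 was the higher in every control library and COG3 in every indomethacin library on the CPM scale, which is not per length. Per kilobase of the principal transcript, COG4 was at 25.4 ± 0.344 in control and 12.6 ± 0.765 CPM in indomethacin libraries, and COG3 at 9.11 ± 0.517 and 19.8 ± 2.79 CPM.

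In lobe B, COG5 was measured at 37.7, 38.8 and 34.5 CPM in control libraries 1 to 3 and at 92.6, 86.9 and 82.6 CPM in indomethacin libraries 1 to 3, a log2 fold change of 1.24 ± 0.10. COG6 (ENSG00000133103, chr13:39655627-39791665, plus strand) was measured at 90.3, 93.8 and 89.1 CPM in control libraries 1 to 3 and at 38.1, 38.3 and 42.2 CPM in indomethacin libraries 1 to 3, a log2 fold change of -1.20 ± 0.10. Per kilobase of the principal transcript COG6 went from 25.6 ± 0.677 to 11.1 ± 0.643 CPM and COG5 from 9.11 ± 0.555 to 21.5 ± 1.23 CPM. Replicates of COG6 and COG5 differed little within a group, and their groups lay far apart. Of the exon length of COG5, 13.6% is shared with HBP1 on the opposite strand. HBP1 had 8365 counts over all libraries, against 7500 for COG5.

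The other subunits had smaller differences or lower levels. COG1 was at 15, 16.2 and 11.9 CPM without the drug and 20.4, 22.7 and 21.5 CPM with it (0.58 ± 0.14), with all indomethacin libraries above, and 21.7% of its exon length is shared with FAM104A. COG2 was at 44.1, 39.1 and 36.9 CPM without the drug and 28.5, 27.3 and 33.2 CPM with it (-0.44 ± 0.12), with all indomethacin libraries below. COG8 was at 8.07, 9.36 and 8.19 CPM without the drug and 4.51, 4.66 and 1.92 CPM with it (-1.19 ± 0.26), with indomethacin replicate 3 below the other indomethacin libraries. COG6 and COG8 had the lowest log2 fold changes of the 50 genes, and which was lower changed with the setting, COG8 reaching -1.39 and -0.91 at its extremes. Exons of COG8 are shared with PDF on the same strand (28.9% of its length) and with VPS4A and NIP7 on the opposite strand (22.0% and 11.1%), so that its counts are uncertain. COG7 was at 9.74, 11 and 11.8 CPM without the drug and 6.31, 8.29 and 10.3 CPM with it, its groups overlapped, and its log2 fold change of -0.39 ± 0.18 did not pass, but it passed as lower in 4 other settings: without control replicate 1, without indomethacin replicate 3, with the replicate number as a block and with no filter.

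**Figure D3:**
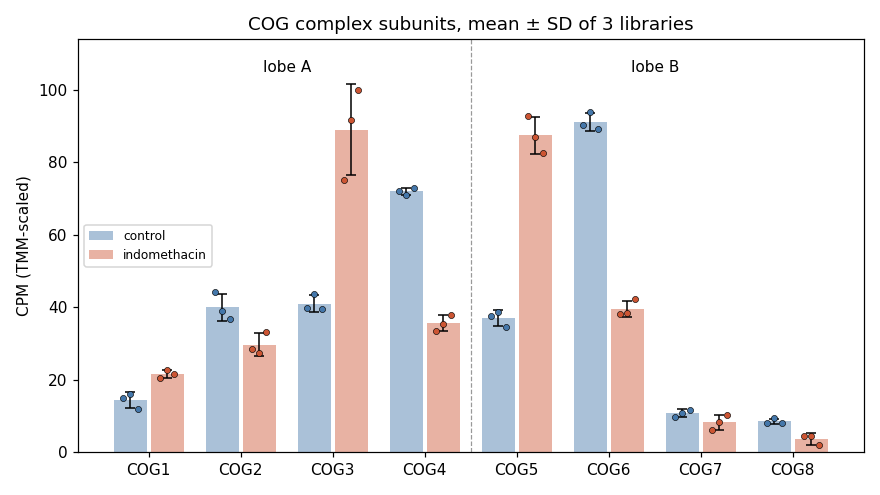
Level of the 8 COG subunits in CPM (counts scaled by TMM, not per length), with bars for the mean of 3 libraries, lines for the SD and points for single libraries, control in blue and indomethacin in red. COG3 and COG5 are above their controls and COG4 and COG6 below theirs, with no overlap of points.

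The COPI coat, which carries cargo back through the Golgi, had 2 genes called higher, 2 called lower and 4 not passed, with a median log2 fold change of 0.26. That is 25% in each direction, beside 30.6% higher and 31.0% lower over all genes tested, and nothing is read from these counts. COPA, the alpha subunit of the outer cage, rose, with 242, 289 and 311 CPM without the drug and 382, 421 and 460 CPM with it (0.58 ± 0.12). COPG1, a gamma subunit, rose as well, with 118, 122 and 139 CPM without the drug and 187, 217 and 242 CPM with it (0.77 ± 0.12). Its paralogue COPG2 fell, with 31, 26.5 and 28.8 CPM without the drug and 19.8, 17.6 and 21.6 CPM with it (-0.55 ± 0.12). Per kilobase of exon, COPG2 gave 19.6% ± 1.97 of the counts of the pair in control and 8.95% ± 1.11 in indomethacin libraries (SD, n = 3). Every indomethacin library held a smaller COPG2 share (8.0% to 10.2%) than every control library (18.2% to 21.9%).

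COPZ1, the zeta subunit that pairs with gamma in the inner coat, fell, with 87.7, 84.8 and 90.1 CPM without the drug and 46, 50.3 and 63.7 CPM with it (-0.72 ± 0.12). The other inner-coat subunits, COPB1 (beta) and ARCN1 (delta), did not pass. COPB1 had 215, 212 and 221 CPM without the drug and 231, 244 and 294 CPM with it (0.25 ± 0.11), and ARCN1 had 102, 117 and 127 CPM without the drug and 128, 129 and 159 CPM with it (0.27 ± 0.12). Their indomethacin libraries were above their control libraries, with ARCN1 values of 127 and 128 CPM at the border. In the outer cage, COPB2 (beta prime) had 256, 254 and 267 CPM without the drug and 201, 228 and 281 CPM with it (-0.13 ± 0.12) and COPE (epsilon) had 70.7, 66.4 and 81.2 CPM without the drug and 63.6, 95.6 and 106 CPM with it (0.28 ± 0.16). Both overlapped, with indomethacin replicate 1 below all controls and replicate 3 above all controls. Without indomethacin replicate 3 COPB2 passed as lower, and without replicate 1 COPE and COPB1 passed as higher. With upper-quartile factors COPE, COPB1 and ARCN1 passed as higher. COPB1 and ARCN1 also did so with a minimum of 1 CPM in 3 libraries and with an offset for gene length. ARCN1 passed with the replicate number as a block too.

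The COPII coat, which forms vesicles at exit sites of the endoplasmic reticulum, had 7 of 11 genes called higher and 1 called lower, with a median log2 fold change of 0.54. Beside these stand 30.6% higher, 31.0% lower and a median of 0.04 over all genes tested, and nothing is read from the counts. The largest difference of the 50 genes was that of SEC24D (ENSG00000150961, chr4:118722823-118838683, minus strand), 1 of 4 SEC24 paralogues that select cargo. SEC24D stood at 24.7, 27 and 28.9 CPM in control libraries 1 to 3 and at 93.8, 116 and 148 CPM in indomethacin libraries 1 to 3, a log2 fold change of 2.15 ± 0.15 (SE) and 4.44-fold. The lowest indomethacin library was over 3 times the highest control library, and replicates 1, 2 and 3 were themselves spread from 93.8 to 148 CPM. The range of its log2 fold change over all other settings was 1.96 to 2.27.

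The other SEC24 genes had smaller log2 fold changes. SEC24A had 29.3, 37.4 and 33.4 CPM without the drug and 52.7, 51.4 and 60.6 CPM with it (0.72 ± 0.12), and SEC24B had 41.5, 39 and 41.2 CPM without the drug and 56.9, 53.5 and 56.4 CPM with it (0.45 ± 0.10), both with no overlap. SEC24C had 43.8, 48.1 and 58 CPM without the drug and 55.4, 58.8 and 58.8 CPM with it (0.21 ± 0.12), with overlap, and 42.8% of its exon length is shared with an unnamed gene. Per kilobase of exon, the SEC24D share of the 4 paralogues was 11.0%, 11.2% and 11.1% without the drug and 24.9%, 29.3% and 33.1% with it. SEC24C went from 38.2% ± 2.78 to 26.4% ± 1.71 and SEC24B from 32.0% ± 2.74 to 26.1% ± 2.4, while SEC24A was at 18.8% ± 2.02 and 18.4% ± 0.724. With the length of the principal transcript, an alternative chosen after the data were seen, the SEC24D share was 19.7% ± 0.241 and 44.6% ± 4.98. The order of the paralogues therefore depends on the length used, and the higher share in each indomethacin library does not.

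SEC23A and SEC23B, the partners of SEC24 that activate the GTPase of SAR1, both rose. SEC23A had 111, 123 and 130 CPM without the drug and 205, 229 and 312 CPM with it (1.04 ± 0.14), and SEC23B had 115, 116 and 121 CPM without the drug and 174, 200 and 239 CPM with it (0.79 ± 0.12). SEC23A gave 34.1% ± 1.25 of the pair per kilobase of exon in control and 37.8% ± 1.61 in indomethacin libraries. SEC31A of the outer cage rose, with 119, 130 and 134 CPM without the drug and 181, 184 and 191 CPM with it (0.54 ± 0.10), while its partner SEC13, which also serves the nuclear pore, had 86.9, 93.5 and 106 CPM without the drug and 77.4, 96.6 and 118 CPM with it (0.03 ± 0.14) and overlapped. SEC16A, the scaffold of exit sites, rose, with 32.7, 48.7 and 41.7 CPM without the drug and 92.2, 87.4 and 80.4 CPM with it (1.08 ± 0.14). Neither GTPase that starts the coat was called higher: SAR1A was called lower, with 100, 81.5 and 87.8 CPM without the drug and 62.8, 65.4 and 81.1 CPM with it (-0.37 ± 0.12), and SAR1B had 34.3, 36.5 and 38.9 CPM without the drug and 34.6, 34.6 and 46.4 CPM with it (0.07 ± 0.13). The highest indomethacin and lowest control libraries of SAR1A were close, at 81.1 and 81.5 CPM. Its call was lost without indomethacin replicate 2 and with upper-quartile factors.

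**Figure D4:**
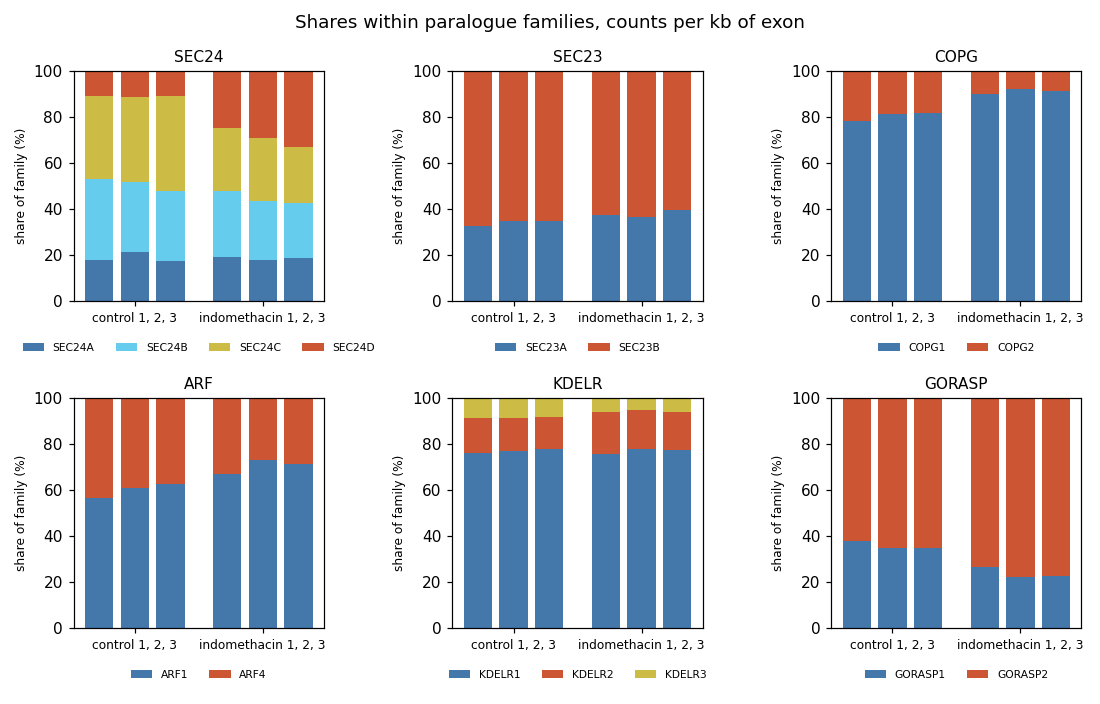
Share of each paralogue in its family's counts per kilobase of exon, in percent, with 1 bar per library (control replicates 1 to 3 left, indomethacin replicates 1 to 3 right). The SEC24D share (red, top left) goes from about 11.1% to 29.1% on average and the COPG2 share (red, top right) from 19.6% to 8.95%, while SEC23 and KDELR1 shares shift by less than 5 points.

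In the ARF module, ARF1, the GTPase that recruits COPI, rose, with 232, 247 and 262 CPM without the drug and 335, 432 and 483 CPM with it, a log2 fold change of 0.75 ± 0.13. ARF4 had 140, 126 and 122 CPM without the drug and 130, 127 and 153 CPM with it (0.08 ± 0.11) and overlapped. Per kilobase of exon ARF1 made up 60.1% ± 3.12 of the 2 in control and 70.5% ± 3.06 in indomethacin libraries. GBF1, the exchange factor that loads ARF1 at the Golgi, had 63.9, 77.2 and 74.1 CPM without the drug and 75.9, 79.6 and 97.5 CPM with it (0.23 ± 0.12) and did not pass. ARFGAP1, which ends the cycle, was called higher, with 70.9, 63.1 and 70.8 CPM without the drug and 72.8, 100 and 104 CPM with it (0.43 ± 0.13). Its call was lost without control replicate 2 or indomethacin replicate 2.

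Of the 5 listed receptors that cycle with these coats, none was called higher and 2 were called lower. Over all genes tested, 30.6% were called higher and 31.0% lower, so nothing is read from these counts. KDELR3 fell, with 23.4, 25.2 and 25.8 CPM without the drug and 14.3, 14.4 and 17.6 CPM with it (-0.69 ± 0.13), and TMED10, a p24 cargo receptor, fell, with 379, 362 and 389 CPM without the drug and 233, 244 and 276 CPM with it (-0.59 ± 0.11). KDELR1 had 238, 257 and 286 CPM without the drug and 204, 245 and 268 CPM with it (-0.12 ± 0.12) and KDELR2 had 81.8, 83.5 and 90.6 CPM without the drug and 85.9, 92 and 102 CPM with it (0.13 ± 0.11), both with overlap. TMED2, the partner of TMED10, had 228, 224 and 223 CPM without the drug and 182, 183 and 220 CPM with it (-0.21 ± 0.11), below its controls in all libraries by 3 CPM at the nearest, and passed only where indomethacin replicate 3 was left out or no filter was used. KDELR1 was the main receptor in both groups, with 77.0% ± 0.724 and 76.9% ± 1.18 of the family's counts per kilobase of exon, while KDELR3 went from 8.62% ± 0.346 to 5.85% ± 0.421.

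Per kilobase of the principal transcript, the highest of the 50 levels in control libraries were KDELR1 at 167 ± 15.4, ARF1 at 123 ± 7.44 and TMED10 at 91.2 ± 3.27 CPM. The lowest were COG8 at 3.42 ± 0.286, COG7 at 3.7 ± 0.354 and GOLGA1 at 4.47 ± 0.191 CPM. Among golgins USO1 was the highest, at 39.1 ± 1.26 CPM in control and 58.9 ± 1.16 CPM in indomethacin libraries, and GOLGA5 came next at 25.2 ± 0.66 and 52.3 ± 6.91 CPM. KDELR1 and ARF1 changed places, with 154 ± 20.8 and 208 ± 37.5 CPM in indomethacin libraries, where their ranges (131 to 172 and 167 to 241 CPM) overlapped. Many of the 50 genes are long, and 15 have 8000 or more bases of exon. Of those 15, 10 were called higher and 2 lower with a median log2 fold change of 0.54, while all 3301 genes tested of that length had a median of 0.05 and 35.0% called higher. With an offset for gene length, 28 of the 50 genes were called higher and 10 lower.

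Genes that work with the 50 were listed by function, in 11 lists that hold 215 genes. Of 207 tested, 74 were higher and 65 lower, 35.7% and 31.4%, with a median log2 fold change of 0.07, near the 30.6%, 31.0% and 0.04 of all genes tested. Levels below are means ± SD over 3 libraries, control before indomethacin, and the adjusted p-values are those of edgeR's quasi-likelihood test over all genes tested.

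Other golgins and Golgi scaffold proteins had 12 of 21 called higher and 4 lower (median 0.48). GOLGA8B (14.4 ± 3 against 35.4 ± 9.79 CPM, log2 fold change 1.30, adjusted p = 5.7e-05) and GOLGA8A (20.1 ± 3.69 against 46.3 ± 12.6 CPM, log2 fold change 1.20, adjusted p = 7.8e-05) rose, and as near-identical copies they may share reads. GOLM1, a Golgi membrane protein that is cleaved and secreted (239 ± 7.31 against 78.8 ± 6.25 CPM, log2 fold change -1.60, adjusted p = 2e-08), and GOLIM4, which cycles between Golgi and endosomes (38.6 ± 1.59 against 20.5 ± 2.07 CPM, log2 fold change -0.91, adjusted p = 1.2e-05), fell. Genes of exit sites and cargo receptors had 10 of 24 higher and 7 lower (median 0.18). MIA2, whose product helps to load bulky cargo at exit sites, had the largest difference of that list (116 ± 4.35 against 423 ± 23.6 CPM, log2 fold change 1.87, adjusted p = 4.2e-09). PREB, or SEC12, the exchange factor of SAR1, rose as well (43.5 ± 4.19 against 81.8 ± 22.2 CPM, log2 fold change 0.91, adjusted p = 0.00027). ERGIC1 and BCAP31, of membrane protein transport, fell, with log2 fold changes of -0.96 (adjusted p = 2.2e-06) and -0.90 (adjusted p = 5.8e-06).

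Other ARF and COPI factors had 6 of 20 higher and 6 lower (median 0.11). The p24 protein TMED5 rose, with a log2 fold change of 1.18 (adjusted p = 2.1e-07). ARF3 (116 ± 10.7 against 49.5 ± 5.2 CPM, log2 fold change -1.22, adjusted p = 6.7e-07) and ARF5 at -0.64 (adjusted p = 0.00014), relatives of ARF1, fell. Among SNAREs, 7 of 21 were higher and 6 lower (median 0.15). STX5, the syntaxin of ER to Golgi fusion (22.4 ± 0.525 against 54.5 ± 6.69 CPM, log2 fold change 1.28, adjusted p = 5.2e-07), and STX16, of the trans-Golgi (11.7 ± 2.57 against 35.6 ± 2.45 CPM, log2 fold change 1.61, adjusted p = 7.5e-07), rose. Exons of STX16 share 28.4% of their length with the readthrough gene STX16-NPEPL1. SCFD2 at -2.12 (adjusted p = 1.3e-07) and STX10 at -1.10 (adjusted p = 9.6e-06) fell. The Rab GTPases of the early pathway had 5 of 10 higher and 2 lower (median 0.50). RAB43, at 2.06 ± 0.723 against 8.3 ± 2.37 CPM (adjusted p = 3e-05), and RAB6A, which golgins bind (82.5 ± 2.48 against 148 ± 10.7 CPM, log2 fold change 0.84, adjusted p = 7.3e-06), both rose, while RAB1B at -0.90 (adjusted p = 8e-05) and RAB2A at -0.33 (adjusted p = 0.0098) fell. The call of RAB2A was lost with upper-quartile factors.

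The other multisubunit tethers also held subunits on both sides. Over all genes tested, 30.6% were called higher and 31.0% lower, so nothing is read from this. TRAPP had 5 of 15 higher and 3 lower (median 0.21), and its alternative subunits TRAPPC6B at 1.18 (adjusted p = 1.5e-06) and TRAPPC6A at -1.05 (adjusted p = 1.5e-05) moved in opposite directions. Exons of TRAPPC6B share 56.2% of their length with an unnamed gene on the opposite strand. TRAPPC12 at 1.11 (adjusted p = 5e-06) rose and TRAPPC2L at -1.09 (adjusted p = 2.6e-06) fell. GARP, EARP and Dsl1 had 2 of 8 higher and 2 lower (median -0.11), with VPS52 at -0.85 (adjusted p = 0.00023), VPS54 at -0.50 (adjusted p = 0.00087), NBAS at 0.36 (adjusted p = 0.0058) and VPS53 at 0.28 (adjusted p = 0.046). The VPS53 call was lost in 10 of the 13 other settings. NBAS lost its call with no filter and without control replicate 3. The exocyst, which acts at the plasma membrane, had 5 of 9 higher and 1 lower (median 0.29), with EXOC6B at 0.53 (adjusted p = 0.00049), EXOC7 at 0.50 (adjusted p = 0.00059) and EXOC6 at -0.38 (adjusted p = 0.0059).

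Clathrin and its Golgi adaptors, the coat of the exit side, had 3 of 23 called higher and 12 lower (median -0.28). AP1B1, the large beta subunit of AP-1 (81.8 ± 7.84 against 32.8 ± 1.63 CPM, log2 fold change -1.32, adjusted p = 2e-07), and AP1S3, a small subunit of AP-1 (11.5 ± 0.854 against 2.96 ± 1.2 CPM, log2 fold change -1.94, adjusted p = 7.3e-06), fell. AP1G2 at 0.80 (adjusted p = 0.00015) and AP3D1 at 0.69 (adjusted p = 0.0013) rose. Exons of AP1G2 share 39.1% of their length with AP1G2-AS1 on the opposite strand, and those of AP1S3 share 32.3% with an unnamed gene on the same strand. Golgi glycosylation enzymes had 11 of 42 higher and 18 lower (median -0.14). GCNT3 (14.6 ± 4.13 against 118 ± 8.45 CPM, log2 fold change 3.02, adjusted p = 5.2e-09) and GCNT1 (15.7 ± 1.55 against 2.27 ± 0.763 CPM, log2 fold change -2.78, adjusted p = 1e-07), both of which branch mucin-type O-glycans, moved in opposite directions. GALNT6, which starts O-glycans, fell (73.9 ± 13 against 11.1 ± 0.313 CPM, log2 fold change -2.74, adjusted p = 2e-09), and B4GALT5, a galactosyltransferase, rose (76.2 ± 1.97 against 143 ± 5.67 CPM, log2 fold change 0.91, adjusted p = 2.3e-06).

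The last list holds membrane-bound bZIP factors, XBP1, its activator ERN1, TFE factors and the proteases MBTPS1 and MBTPS2 that release such factors from Golgi membranes, and had 8 of 14 higher and 4 lower (median 0.57). CREB3L3, a membrane-bound bZIP factor of liver and gut, had the largest difference of all 11 lists (1.14 ± 0.404 against 76.4 ± 4.21 CPM, log2 fold change 6.06, adjusted p = 4.4e-11). ERN1, or IRE1, the sensor that splices XBP1, rose (11 ± 1.16 against 110 ± 1.01 CPM, log2 fold change 3.32, adjusted p = 1.5e-10). XBP1 (164 ± 10.5 against 376 ± 8.11 CPM, log2 fold change 1.20, adjusted p = 2.7e-07) and ATF6 (124 ± 4.67 against 269 ± 9.94 CPM, log2 fold change 1.12, adjusted p = 3.9e-07), both known to act at elements of the UPRE kind, rose. The protease MBTPS1 was called lower at -0.26 (adjusted p = 0.046), a call lost in 7 of the 13 other settings, 4 of which left out control replicate 2 or 3 or indomethacin replicate 2 or 3, and MBTPS2 did not pass (9.73 ± 1.57 against 7.54 ± 2.07 CPM, log2 fold change -0.37, adjusted p = 0.13). These 4 genes were named after their values were seen. CREB3, a bZIP factor cleaved in the Golgi, rose (35 ± 2.14 against 59.4 ± 10.8 CPM, log2 fold change 0.76, adjusted p = 0.00019), as did CREB3L2 (18.6 ± 1.79 against 37.6 ± 2.67 CPM, log2 fold change 1.01, adjusted p = 6.1e-06). TFE3, known to bind the GASE motif, rose (28.6 ± 3.02 against 51.9 ± 6.26 CPM, log2 fold change 0.86, adjusted p = 4e-05), and its relative TFEB was lower at -0.51 (adjusted p = 0.03). CREB3L1 was lower, at a low level (2.74 ± 0.819 against 1.04 ± 0.435 CPM, log2 fold change -1.38, adjusted p = 0.0043), and CREB3L4 was lower at -0.48 (adjusted p = 0.035). MITF did not pass (2.71 ± 0.0658 against 2.91 ± 0.81 CPM, log2 fold change 0.10, adjusted p = 0.76). The calls of TFEB and CREB3L4 were lost without control replicate 2, control replicate 3 or indomethacin replicate 1, and with upper-quartile factors, and that of CREB3L4 also with a minimum of 1 CPM in 3 libraries. These are RNA levels, and neither cleavage nor binding of these factors was measured.

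**Figure D5:**
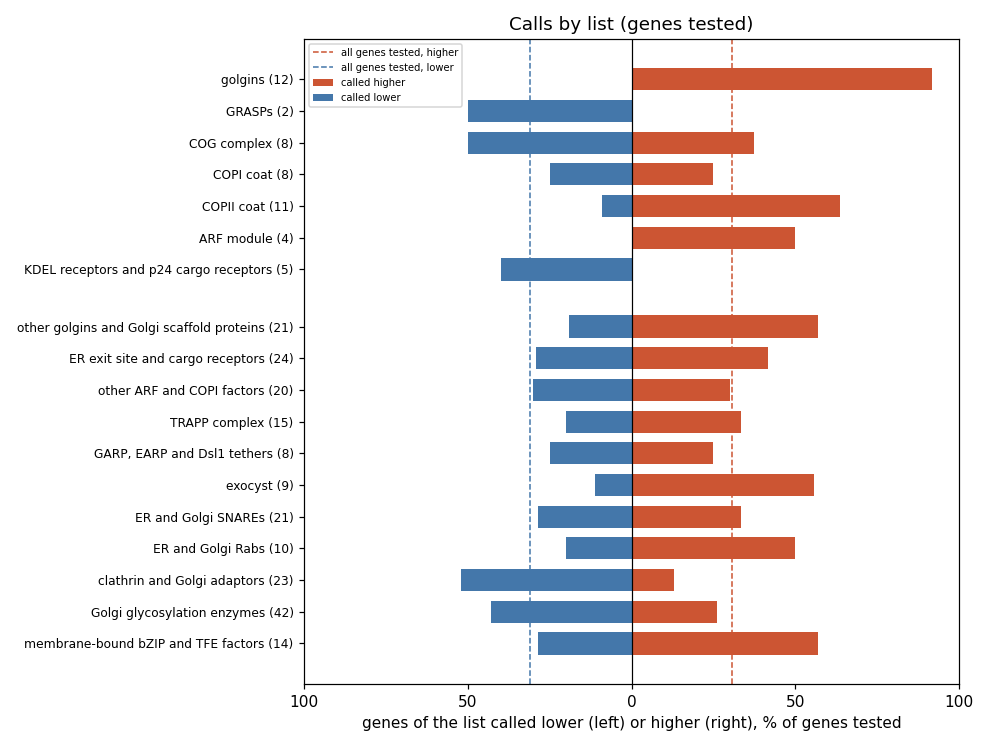
Percentage of the genes tested in each list that were called higher (red, right) or lower (blue, left) after indomethacin, with the number tested in parentheses and dashed lines at the 30.6% and 31.0% of all genes tested. The golgins, chosen by this contrast, reach 91.7% called higher, and clathrin and Golgi adaptors have 52.2% called lower and 13% higher.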

How the data were processed

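Total RNA of AGS cells was depleted of ribosomal RNA, made into stranded libraries and read as pairs of 100 bases, per the labels' protocols. The submitters' processing notes name bcl2fastq, FastQC 0.11.7, cutadapt 1.16, HISAT2 2.1.0, SAMtools, featureCounts, DESeq2 and build hg38. Their settings, the annotation release, the strand setting and the handling of multiply mapped reads are not given in the sources used here. The authors deposited 1 table of raw counts per library, with exon coordinates and lengths, per the file headers. Strand setting matters here because exons of 30 of the 50 genes overlap another gene with counts, 26 of them a gene on the opposite strand.

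Of 60607 lines per table, 3 that break up 1 gene were left out. Genes passing edgeR's filterByExpr (edgeR 4.0.16, R 4.3.3) were scaled by TMM and tested by the quasi-likelihood functions glmQLFit and glmQLFTest on a design holding only the group. Levels are TMM-scaled CPM, errors of means are SDs (n = 3), and errors of log2 fold changes are SEs. No 2 libraries of a group were the same within sampling noise (chi-square over its degrees of freedom was 6.99 to 21.9), and all 6 were kept. Counting floors cover counting error only. The same code was run on simulated data in which a far smaller share of genes changed than the 61.6% called here. That run therefore cannot show how the code does at such a share. Levels per kilobase use the exon length of the tables or, where said, the principal transcript of GENCODE 29. Promoter windows and their sequences are RefSeq's (GRCh38.p14).

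The 50 genes, the lists and the motifs were chosen with earlier results of these data known. Named were all 50 genes, and from each list the 2 genes with the most positive and the 2 with the most negative log2 fold change, among those that passed the test and averaged 5 CPM or more, plus CREB3, CREB3L1, CREB3L2, TFE3 and MITF; 1 gene that this rule names is not reported here. XBP1, ATF6, MBTPS1 and MBTPS2 were added after their values were seen. Alternatives were DESeq2 1.42.0, RLE and upper-quartile factors, an offset for gene length, no filter, a minimum of 1 CPM in 3 libraries, a replicate block, and leaving out each library. Protein sequences were not used here.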

Additional observations from a re-analysis of the deposited data

How the results depend on the processing

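The counts of all genes called, of the 50 genes called higher or lower and of the pathway genes called higher or lower stayed within 1.5 times their values under all 13 settings. Leaving out 1 library at a time gave 22 to 26 of the 50 genes called higher and 9 to 13 lower. The median log2 fold change of the 50 genes, 0.30, was 0.41 with upper-quartile factors and 0.19 with no filter on low counts, and 0.20 to 0.31 with 1 library left out, the lowest without control replicate 1. Upper-quartile factors moved the median of all genes tested by 0.12 and no filter by 0.15, to 0.20, so that the 50 genes stood 0.25 above that median in the first case and 0.01 below it in the second; the cause was not tested. Of 650 values for the single genes, 610 kept their side of the threshold, 16 lost the call and 24 gained it. Direction was compared only for genes called in the results above, and 0 of their values were reversed. Among genes that did not pass, the sign could change, as for SEC13, with log2 fold changes from -0.14 to 0.15 over the settings. Of 676 values for the named pathway genes, 644 kept their side of the threshold, 29 lost the call and 3 gained it.

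Whether the replicate numbers of the titles pair the libraries cannot be settled with 3 libraries per group. Deviations of same-numbered libraries correlated at 0.023, 0.012 and 0.132. Control replicates 1 and 3 correlated best with their same-numbered library, and control replicate 2 with indomethacin replicate 1 (0.131). With the replicate block, 26 of the 50 genes were called higher and 11 lower, with a median of 0.29, and of all genes tested 5249 were called higher and 5352 lower. Depth limits genes with a group mean under 5 CPM, among them COG8, SCFD2, RAB43, AP1S3, GCNT1, CREB3L1, CREB3L3 and MITF.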
